A study of Drosophila melanogaster with 6 samples.

Results

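The late wandering transcriptome of Drosophila melanogaster larvae depleted of Cmi was compared with that of wild-type larvae of the same stage. Genes entered the comparison where the mean of the 2 clear gut values was at least 1 RPKM (reads per gene, scaled to gene length and library depth), with a dash in the table read as 0. Of the 15741 entries in the table, 11250 met this rule, and 740 of them had no gene symbol. A gene at 0 in either library could enter only through its value in the other, and then it had to pass the 2-fold mark used below.

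The 6 libraries of the series were made from whole wandering larvae of the third instar raised at 25 °C, with more than 20 animals pooled for each library. They come from wild type, from larvae with a short hairpin RNA against Cmi and from larvae with a short hairpin RNA against Trr, each at blue gut (earlier wandering) and at clear gut (later wandering, shortly before the puparium forms). The hairpins were driven by GawB69B, a Gal4 line known for broad activity in the epidermis and the imaginal discs, so that depletion need not reach every tissue. The stock behind the wild-type pools is not named, and whether they carried the driver or a control hairpin is not stated. Each group holds 1 library, so no p-value can be given, and every difference below describes 2 pools of larvae. In a whole larva, fewer cells of a type and less RNA per cell cannot be told apart.

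Cmi, listed in the table under its other name Lpt, and Trr act in a COMPASS-like complex, in which Trr is the histone H3 lysine 4 methyltransferase and Cmi carries PHD fingers that bind histone tails. In flies and mammals this complex is best known at enhancers, where it deposits monomethylated lysine 4, and it has been linked to the ecdysone receptor. At the end of wandering, a pulse of the steroid ecdysone prepares the larva for metamorphosis. The salivary gland releases its glue, the epidermis begins to make the pupal cuticle, and larval tissues such as midgut and muscle approach their removal.

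Read depth was similar, with 24.2 M reads on genes in the wild-type and 25.0 M in the Cmi-depleted clear gut library, and 23.1 to 25.0 M over the 6 libraries. In the clear gut pair, 11.8% and 13.4% of reads fell on the 10 most abundant genes. For a gene of median length, 3 reads (the floor used here) amount to 0.0777 to 0.0842 RPKM. Intervals given with ratios are exact (Clopper-Pearson) 95% intervals that cover counting error only. Genes that mark fat body, midgut, muscle, blood cells, salivary gland, neurons and imaginal discs were all detected, as a whole larva should give.

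Lpt, the gene targeted by the hairpin, was only slightly lower in the depleted larvae. It measured 5.57 RPKM at blue gut and 6.66 at clear gut in wild type, 4.44 and 5.11 in Cmi-depleted larvae, and 5.95 and 6.95 in those labelled as Trr depletion. Both Cmi depletion libraries were thus the lowest of their stage, and the ratio at clear gut was 0.767 (0.687 to 0.856). The partner gene trr measured 6.19 RPKM in wild-type larvae and 5.925 in Cmi-depleted larvae at clear gut, a ratio of 0.958 (0.884 to 1.04), not distinguishable at this depth. In the libraries labelled as Trr depletion, trr measured 3.60 RPKM at blue gut and 4.76 at clear gut. The clear gut value was the lowest of the 3 genotypes, below the 6.19 of wild type, in the direction of the label. The blue gut value lies above the 2.92 of wild type, against the label, so those libraries are called Trr-labelled below.

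Differences were taken on the scale of log2(RPKM + 1), Cmi depletion minus wild type, a scale that makes ratios of weak genes look smaller than they are. At clear gut 481 genes were at least 2-fold lower in Cmi depletion (4.28% of those tested) and 161 at least 2-fold higher (1.43%). With a pseudocount of 0.1 RPKM the counts were 603 and 365, and with 5 RPKM 263 and 49. On the scale used, 127 of the lower genes were past 4-fold, 47 past 8-fold and 15 past 16-fold, against 33, 8 and 2 of the higher genes. The higher genes were mostly weak in wild type, where the added 1 RPKM caps the fold, and the read ratio of CG43133, at 95.6 (26.1 to 795), was well past its value on this scale. The counting interval of the read ratio lay wholly past 2-fold for 423 of the lower and 115 of the higher genes, and reached inside 2-fold for the rest of the 642 (5.71% of those tested). The spread between pools is unknown. The scatter plot of the clear gut pair shows more points below the lower 2-fold line than above the upper.

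**Figure D1:**
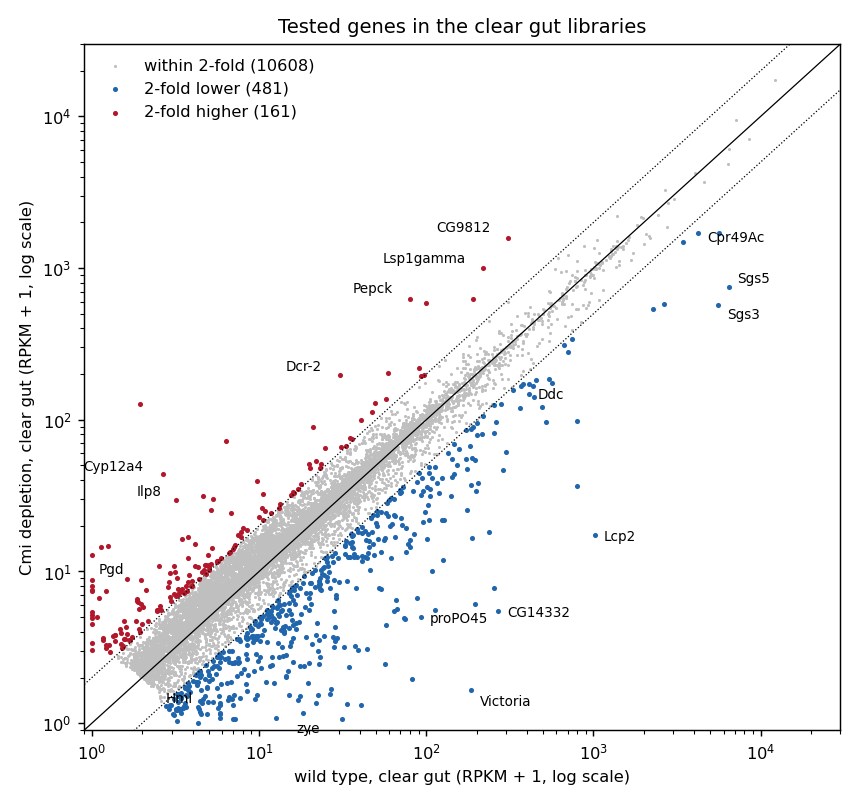
RPKM + 1 of each tested gene in the wild-type library (horizontal, log scale) and the Cmi-depleted library (vertical, log scale) at clear gut. Each point is 1 gene, the solid line marks equal values and the dotted lines a 2-fold difference; 481 genes lie below the lower dotted line and 161 above the upper line.

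As deposited, the median difference of all tested genes was 0.13, with the middle 50% of genes between -0.06 and 0.32, and 69.0% of the genes lay above 0. This median becomes 0.00 after median-ratio scaling and 0.05 after quantile normalization, and list medians are to be read against it. The 481 lower genes had a median of 17.7 RPKM in wild-type larvae and 4.14 in Cmi-depleted larvae. The 161 higher genes were weaker, with a median of 2.68 RPKM in wild-type larvae and 9.16 in Cmi-depleted larvae, beside 11.2 in wild-type larvae for all genes tested. The lower and higher genes had a median length of 1348 and 843 bases, where that of all tested genes was 1805. At the threshold itself, CG34222 stood at 1.01 just inside and CG17154 at 1.00 just outside on the higher side, and CG34437 and SP1029 lay next to the lower mark on its inner and outer side.

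Many cuticle genes were lower in Cmi depletion. Of the 9 larval cuticle genes tested (of 20 in the table), 6 were at least 2-fold lower in Cmi depletion, 0 were higher, and the median difference was -2.91. Their summed level was 1151 RPKM in wild-type larvae and 43.0 in Cmi-depleted larvae at clear gut, with 1333 in the Trr-labelled library. The wild-type and Trr-labelled values thus lay together, far above the Cmi value. Most of that sum is Lcp2, a larval cuticle protein gene, which measured 3790 and 1019 RPKM in wild-type larvae at blue and clear gut, 1178 and 16.3 in Cmi-depleted larvae, and 1932 and 891 in the Trr-labelled libraries. Lcp2, Lcp1, Lcp4 and Lcp65Ab1 hold values with 0.5 of a read, a sign of reads shared with a similar sequence, so their single values are uncertain. Members without such values passed the 2-fold mark too. Lcp9 measured 569 and 16.5 RPKM in wild-type larvae, 254 and 0.507 in Cmi-depleted larvae, and 68.6 and 8.08 in the Trr-labelled libraries. Lcp65Ac measured 109 and 13.4, 16.4 and 1.01, and 29.5 and 11.1 RPKM in the same order, so that Cmi depletion was lowest at both stages. The list was less shifted at blue gut by its median difference of -0.28. Even so, 4 of the 9 genes were at least 2-fold lower there and 1 higher, beside 1.83% and 1.48% of all tested genes.

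Pupal cuticle genes were lower as well, although their summed level in wild type was higher at clear gut (4346 RPKM) than at blue gut (683 RPKM). Most of both sums is Cpr49Ac. In wild type, Gld and Pcp were also higher at clear gut than at blue gut, while Edg91 was lower (10.1 beside 15.4 RPKM). All 4 tested members (of 9 in the table) were at least 2-fold lower, with a median difference of -1.83, against -0.31 at blue gut. Cpr49Ac, a gene of the chitin-binding cuticle protein family, was among the most abundant RNAs of late wandering. It measured 644 RPKM at blue gut and 4232 at clear gut in wild type, 522 and 1702 in Cmi-depleted larvae, and 519 and 3830 in the Trr-labelled libraries. At blue gut the 3 genotypes were close, while at clear gut the Cmi library stood apart with a ratio of 0.402 (0.399 to 0.405). Gld, a glucose dehydrogenase gene linked to cuticle modification, measured 19.98 and 77.0 RPKM in wild-type larvae, 14.9 and 14.3 in Cmi-depleted larvae and 11.6 and 101 in the Trr-labelled libraries. Its level was therefore about the same at both stages in Cmi depletion, where the other genotypes were higher at clear gut.

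In the wider Cpr and Ccp84A cuticle family, 10 of 24 tested genes (of 76 in the table) were at least 2-fold lower and 0 higher, with a median of -0.76. Cpr49Ac is counted in this list too. Cpr67B measured 64.8 RPKM in wild-type larvae, 5.47 in Cmi-depleted larvae and 79.97 in the Trr-labelled library at clear gut, after 60.1, 69.8 and 75.7 at blue gut. Other members were level, among them Cpr65Ay (81.0 and 81.2 RPKM in wild-type larvae and Cmi depletion) and Cpr66D (7.09 and 7.13). Chitin genes, which build and remodel the polysaccharide of the cuticle, gave 8 of 33 lower, 0 higher and a median of -0.44. Among them were the deacetylase genes Cda4 (22.2 RPKM in wild-type larvae and 6.71 in Cmi-depleted larvae) and Cda9 (13.2 and 3.36), and the chitinase gene listed as Cht3, now Cht10 (171 and 85.0).

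Beyond these lists, the zona pellucida domain gene zye, a member of a family of apical matrix proteins, stood out by its size. It measured 30.4 and 17.4 RPKM in wild-type larvae, 21.2 and 0.159 in Cmi-depleted larvae, and 25.9 and 19.7 in the Trr-labelled libraries. Its level was of the same order in all 5 other libraries, and the Cmi clear gut library alone was low, with 28 reads against 2958 in wild type, 109-fold lower. The other 11 tested members of the family did not pass 2-fold, and the median over the 12 was -0.10. This list was added after values had been seen.

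Dopamine and tanning genes, whose products harden and colour the cuticle, did not move as a block. Of 18 tested, 6 were at least 2-fold lower and 0 higher, with a median of -0.34, while the summed level was 4243 RPKM in wild-type larvae and 4374 in Cmi-depleted larvae. Ddc, the dopa decarboxylase gene, measured 18.2 and 408 RPKM in wild-type larvae, 17.2 and 147 in Cmi-depleted larvae, and 15.6 and 382 in the Trr-labelled libraries. The ratio at clear gut was 0.361 (0.353 to 0.369), and only the Cmi library stood apart. The gene of the preceding enzyme, ple (tyrosine hydroxylase), was level at clear gut with a difference of 0.06, and e (ebony, the beta-alanyl-dopamine synthase) stayed short of 2-fold, at 612 RPKM in wild-type larvae and 1160.01 after Cmi depletion. The yellow family genes yellow-e (63.8 and 15.8 RPKM) and yellow-d2 (44.5 and 13.5) were lower in Cmi depletion.

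**Figure D2:**
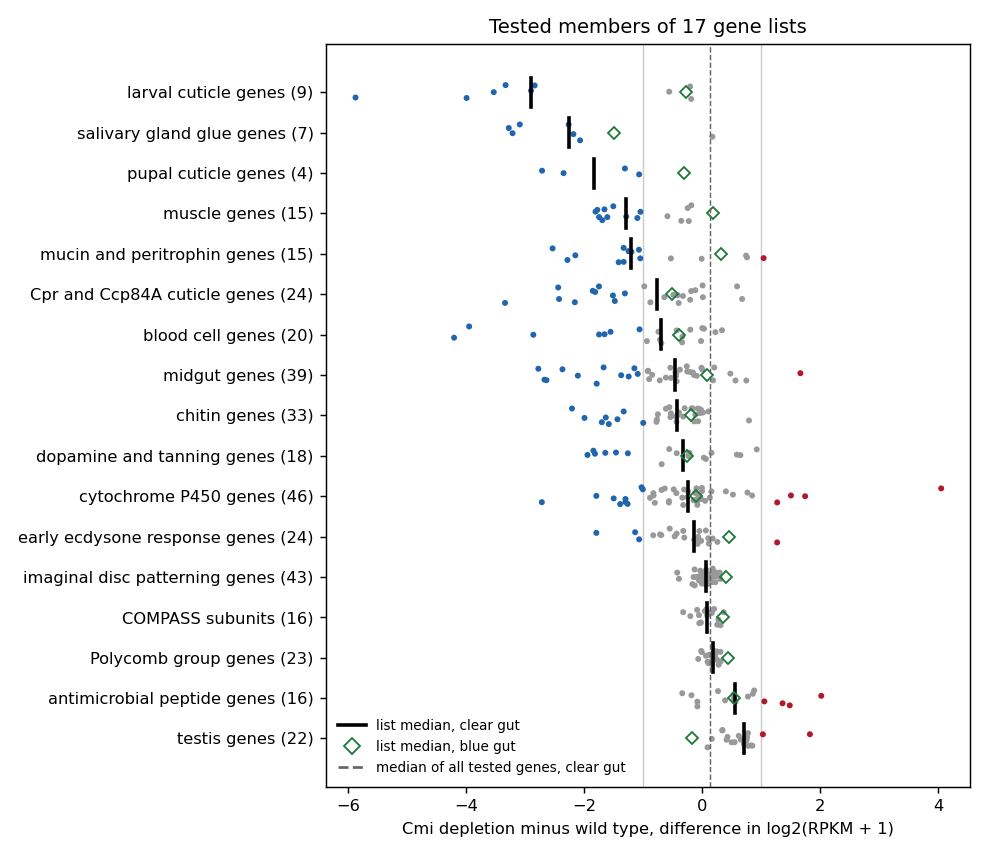
Difference in log2(RPKM + 1) between Cmi depletion and wild type at clear gut for the tested members of 17 gene lists, with the number tested in brackets. Points are genes (blue at least 2-fold lower, red at least 2-fold higher, grey within), black bars are list medians at clear gut, green diamonds list medians at blue gut, and the dashed line is the median of all tested genes at 0.13; of these lists, larval cuticle genes have the lowest median at -2.91 and testis genes the highest at 0.70.

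Salivary gland glue genes were lower by several fold. Glue proteins, made under ecdysone control during the last larval instar, are expelled to fix the puparium to its substrate. Of 7 tested genes (of 10 in the table), 6 were at least 2-fold lower, 0 were higher, and the median was -2.27. Their summed level was 17709.9 RPKM in wild-type larvae, 3256 in Cmi-depleted larvae and 15807.9 in the Trr-labelled library at clear gut. Sgs3 measured 8406 and 5564 RPKM in wild-type larvae, 2968 and 571 in Cmi-depleted larvae, and 3511 and 3241 in the Trr-labelled libraries. Sgs5 measured 6576 and 6421, 1011 and 750.1, and 2690 and 5196 RPKM in the same order. In both genes the Cmi library was the lowest of its stage, and the distance to the Trr-labelled library was wider at clear gut than at blue gut. The list was already low at blue gut, with a median of -1.50 there and 5 members at least 2-fold lower, beside 1.83% of all tested genes. The exception among the 7, CG7587, measured 712 RPKM in wild-type larvae and 800.2 in Cmi-depleted larvae.

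Muscle genes were lower in Cmi depletion at clear gut without exception in direction. All 15 tested (of 23 in the table) lay below 0, 10 of them at least 2-fold lower, with a median of -1.29. The median at blue gut was 0.17, with 0 members past 2-fold in either direction. Their summed level at clear gut was 652 RPKM in wild-type larvae, 245 in Cmi-depleted larvae and 1066 in the Trr-labelled library. At blue gut it was 2966, 3216 and 2577 RPKM, so the order of the genotypes differed between the stages. Prm, which encodes paramyosin of the thick filament, measured 193 and 55.9 RPKM in wild-type larvae, 240.1 and 15.6 in Cmi-depleted larvae, and 197 and 110 in the Trr-labelled libraries. TpnC73F, a troponin C gene, measured 173 and 173, 139.9 and 53.9, and 144 and 235 RPKM in the same order. Mhc, the myosin heavy chain gene, measured 4.79 RPKM in wild-type larvae and 1.80 in Cmi-depleted larvae at clear gut, after 141 and 239 at blue gut. Tm1, Msp-300 and Zasp52, also genes of the sarcomere or its anchorage, lay between -0.25 and -0.19 and did not pass 2-fold.

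Blood cell genes were lower for part of the list. Of 20 tested, 7 were at least 2-fold lower and 0 higher, 17 lay below 0, and the median was -0.71, beside -0.40 at blue gut. The summed level at clear gut was 545 RPKM in wild-type larvae, 269 in Cmi-depleted larvae and 311 in the Trr-labelled library. The prophenoloxidase genes of crystal cells, whose enzymes blacken wounds, were lowest. The gene listed as proPO45 (now PPO2) measured 281 and 91.4 RPKM in wild-type larvae, 103 and 3.99 in Cmi-depleted larvae, and 53.0 and 2.90 in the Trr-labelled libraries. The Cmi and the Trr-labelled libraries were low, and wild type stood apart at both stages. Its partner, listed as proPO-A1 (PPO1), gave 74.0 RPKM in wild-type larvae and 3.84 in Cmi-depleted larvae at clear gut, with 1 value holding 0.5 of a read. Markers of plasmatocytes, the phagocytic blood cells, followed with smaller differences. Hml (hemolectin, a clotting factor) measured 15.9 and 3.78 RPKM in wild-type larvae, 12.2 and 0.512 in Cmi-depleted larvae, and 10.6 and 3.34 in the Trr-labelled libraries. The phagocytic receptor gene eater stood at 16.7 and 4.25 RPKM in wild-type larvae and Cmi depletion at clear gut, and He at 35.8 and 11.5. The lamellocyte marker atilla stood at 16.5 and 1.40 RPKM. In contrast crq (114 and 112 RPKM) and nimC1 (9.92 and 9.91), both genes of plasmatocyte receptors, were level, and the factors srp, ush and lz lay between -0.34 and -0.21.

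Midgut digestive genes lay mostly below wild type, and some were level. Of 39 tested (of 46 in the table), 33 lay below 0, as did 31.0% of all tested genes. In this list 11 were at least 2-fold lower and 1 higher, with a median of -0.46 at clear gut and 0.08 at blue gut. The summed level was 10017.8 RPKM in wild-type larvae, 8313 in Cmi-depleted larvae and 12219 in the Trr-labelled library. The trypsin gene betaTry measured 1554 and 174 RPKM in wild-type larvae, 682 and 24.5 in Cmi-depleted larvae, and 203 and 44.8 in the Trr-labelled libraries. Wild type was highest at both stages, with the Trr-labelled library lowest at blue gut and the Cmi library lowest at clear gut. The lysozyme gene LysS measured 1098 and 21.7, 1118 and 2.55, and 1261 and 28.5 RPKM in the same order. All 3 genotypes were far lower at clear gut than at blue gut, and Cmi depletion was the lowest. Other serine protease genes were lower too, among them Jon66Ci (411 and 172 RPKM in wild-type larvae and Cmi depletion at clear gut) and Jon99Ci (46.4 and 17.2). Some were close to wild type, among them Jon65Aiv (1924 and 2181 RPKM at clear gut) and epsilonTry (395 and 354).

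Genes for the lining of the gut included many lower values. Mucins and peritrophins coat the gut epithelium and build the chitinous peritrophic matrix around the food. In a list of 15 tested genes, put together after values had been seen, 10 were at least 2-fold lower and 1 was higher, with a median of -1.20 at clear gut and 0.31 at blue gut. Peritrophin-15a measured 1950 and 300.1 RPKM in wild-type larvae, 1965 and 60.6 in Cmi-depleted larvae, and 1441 and 310.3 in the Trr-labelled libraries. The 3 genotypes were close at blue gut, and Cmi depletion was 4.95-fold lower at clear gut. Muc96D measured 400.1 and 127 RPKM in wild-type larvae, 784 and 20.9 in Cmi-depleted larvae, and 605 and 189 in the Trr-labelled libraries, so that it was highest at blue gut and lowest at clear gut in Cmi depletion. Muc68E was higher, at 95.8 RPKM in wild-type larvae and 198 in Cmi-depleted larvae at clear gut. Peritrophin-15b, obst-I, CG33333, Gr64b, Gr64d, CG42305, Pepck, Kaz-m1, Damm and Cyp6a9 overlap another annotated gene over at least 20% of their exon bases, and the labels do not say that strand was used in counting, so reads of the pair cannot be told apart.

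Genes that handle foreign compounds and metals differed in both directions. Of 46 cytochrome P450 genes tested (of 82 in the table), 9 were at least 2-fold lower and 4 higher, with a median of -0.25. Among 28 glutathione S-transferase genes, 3 were lower and 3 higher, with a median of 0.00. The lower ones were GstE3 (78.4 and 15.2 RPKM in wild-type larvae and Cmi depletion), GstE7 (14.3 and 2.23) and GstT4 (100.2 and 35.1), and the higher ones all came from the GstD cluster. GstD10 measured 31.4 and 4.19 RPKM in wild-type larvae, 17.2 and 24.5 in Cmi-depleted larvae, and 13.8 and 4.77 in the Trr-labelled libraries. Cmi depletion was thus below wild type at blue gut and 5.85-fold above it at clear gut. MtnC, a metallothionein gene of metal storage, measured 34.5 and 21.5, 2.79 and 1.97, and 11.3 and 5.65 RPKM in the same order. The other 4 metallothionein genes did not pass 2-fold. Cyp6a18, another P450 gene, stood at 8.47 RPKM in wild-type larvae and 0.436 in Cmi-depleted larvae at clear gut.

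The largest negative difference in the comparison belonged to a stress gene. Victoria, listed in the current annotation as TotE, belongs to the Turandot family of secreted stress peptides. It measured 32.1 and 185 RPKM in wild-type larvae, 0 and 0.655 in Cmi-depleted larvae, and 0.070 and 0.069 in the Trr-labelled libraries. Wild type was thus the only genotype with more than traces, and the ratio at clear gut was 0.00355 (0.00170 to 0.00653). TotA of the same family measured 55.2 RPKM in wild-type larvae and 62.3 in Cmi-depleted larvae at clear gut, with values that hold 0.5 of a read. Of 5 immune-induced peptide genes tested, 2 were at least 2-fold lower and 0 higher: IM4 (now Dso1) and IM14 (Dso2). IM4 stood at 5.58 and 0.479 RPKM in wild-type larvae and Cmi depletion, and IM14 at 14.7 and 3.77.

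Several of the lowest genes have no described role that could be given here. CG14332, CG42834 and CG33333 lie in a run of neighbouring genes that is taken up below. CG5084 measured 789 and 81.3 RPKM in wild-type larvae, 883 and 0.953 in Cmi-depleted larvae, and 659 and 112 in the Trr-labelled libraries. At blue gut Cmi depletion was the highest of the 3, and at clear gut it was 85.3-fold below wild type. CG34227 measured 1740 and 799, 747 and 35.6, and 1399 and 1158 RPKM in the same order, the most abundant of the 12 lowest genes. CG3292, annotated as the alkaline phosphatase Alp7, measured 39.9 RPKM in wild-type larvae and 0.326 in Cmi-depleted larvae at clear gut. CG6910, annotated as the myo-inositol oxygenase Miox, measured 25.7 and 0.565.

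Ecdysone response genes were compared next, since the complex has been linked to the ecdysone receptor. Of 24 early response genes tested, 3 were at least 2-fold lower and 1 was higher, with a median of -0.13 at clear gut and 0.44 at blue gut. At clear gut 18 of the 24 lay below 0, as did 31.0% of all tested genes, and 21 lay below the median of all tested genes. EcR, the receptor gene, measured 12.8 and 17.4 RPKM in wild-type larvae, 18.1 and 7.33 in Cmi-depleted larvae, and 18.6 and 21.3 in the Trr-labelled libraries. Only in Cmi depletion was EcR lower at clear gut than at blue gut, and the ratio to wild type was 0.422 (0.397 to 0.448). The nuclear receptor gene Eip75B measured 8.11 and 40.1, 13.9 and 18.6, and 8.97 and 40.4 RPKM in the same order. Cyp18a1, whose enzyme inactivates ecdysone, measured 3.67 and 13.1, 4.58 and 3.05, and 1.72 and 7.96 RPKM. In all 3 of these genes the Cmi library was at or above wild type at blue gut and lowest of the 3 genotypes at clear gut. Eip74EF (80.3 and 44.6 RPKM in wild-type larvae and Cmi depletion at clear gut) and br (103 and 70.1), early factors of the same cascade, did not pass 2-fold. The nuclear receptor genes Eip78C, Hr46 and Hr4 lay at -0.08, 0.10 and -0.44.

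Eip93F, which encodes a transcription factor needed for the death of larval tissues, differed in the other direction. It measured 0.211 and 6.98 RPKM in wild-type larvae, 0.469 and 18.2 in Cmi-depleted larvae, and 0.322 and 2.96 in the Trr-labelled libraries. All blue gut values were low, and at clear gut Cmi depletion was highest, with a ratio of 2.61 (2.48 to 2.75). Of 6 late Eig71E genes, which ecdysone induces in the salivary gland after the early genes, 1 was at least 2-fold higher and 0 lower, with a median of 0.49, while 2 lay below 0. Their summed level was lower in Cmi depletion, at 947 RPKM beside 1282 in wild type, and the most abundant member, Eig71Ee, differed by -0.67. Eig71Ed measured 18.9 RPKM in wild-type larvae and 50.02 in Cmi-depleted larvae. The 11 tested genes of ecdysteroid synthesis had a median of -0.30, and 0 passed 2-fold. Ptth, the brain hormone that drives ecdysteroid synthesis, stood at 1.43 RPKM in wild-type and 3.60 in Cmi-depleted larvae. Its difference was 0.92, short of 2-fold only on this scale, where the added 1 RPKM shrinks ratios of weak genes.

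**Figure D3:**
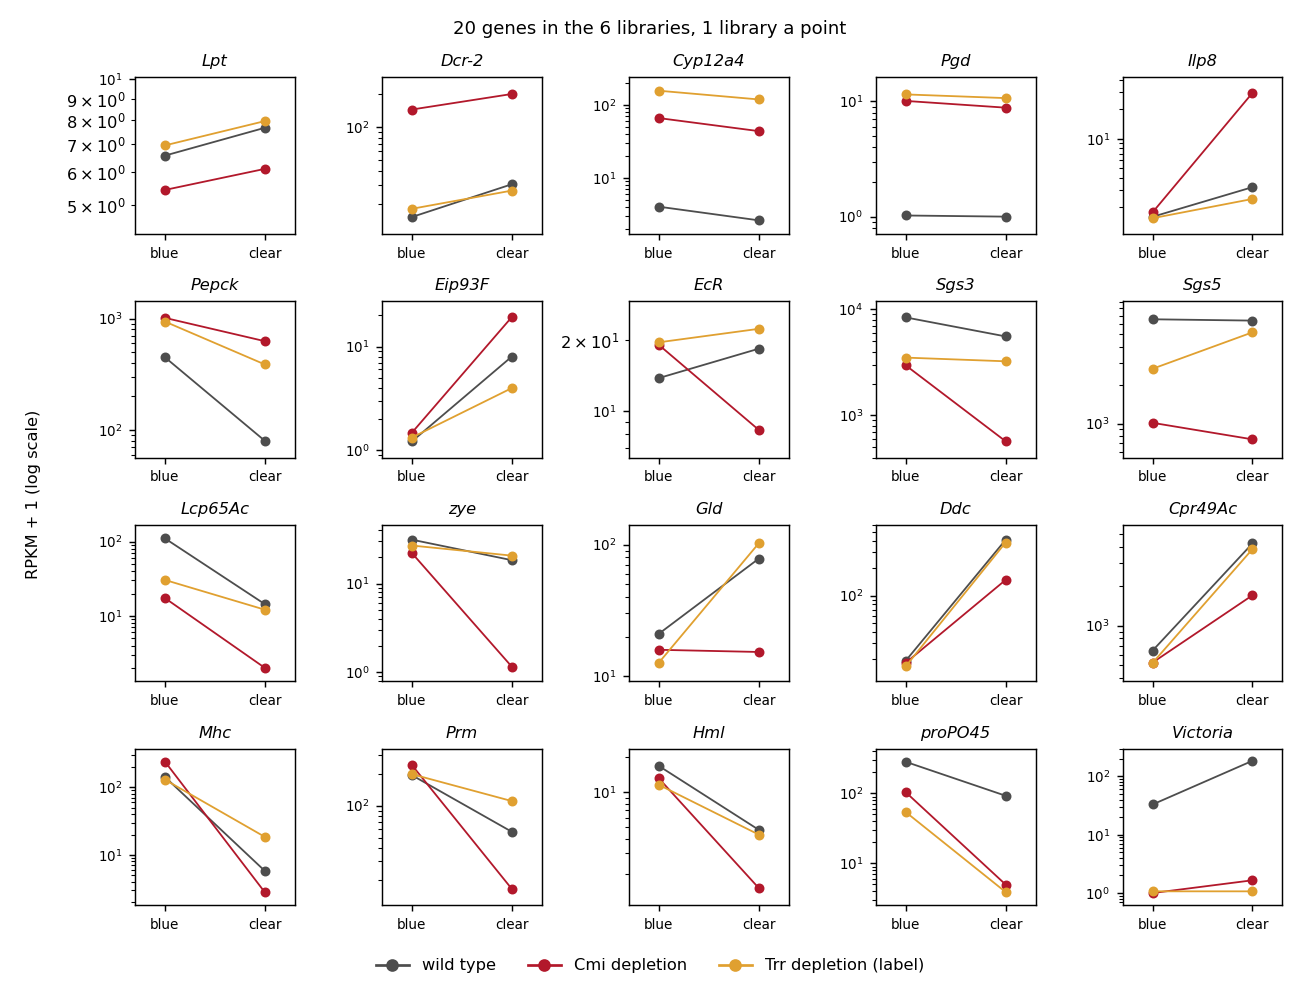
RPKM + 1 (vertical, log scale with its own range in each panel) of 20 genes at blue gut and clear gut in wild type (grey), Cmi depletion (red) and the Trr-labelled libraries (yellow). Each point is 1 library; Dcr-2 is high in both Cmi libraries alone, while EcR, zye and Prm of Cmi depletion are below wild type at clear gut and within 2-fold of it at blue gut.

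Among the genes higher in Cmi depletion, Ilp8 differed at clear gut alone. Ilp8 encodes an insulin-like peptide that imaginal discs release when growth is disturbed and that delays metamorphosis. It measured 0.585 and 2.19 RPKM in wild-type larvae, 0.764 and 28.6 in Cmi-depleted larvae, and 0.533 and 1.42 in the Trr-labelled libraries. The other 5 libraries lay between 0.533 and 2.19 RPKM, and the Cmi clear gut library was 13.05-fold (9.69 to 17.9) above wild type. Ilp2, an insulin-like peptide gene of the brain, went the other way at 7.97 and 3.12 RPKM in wild-type larvae and Cmi depletion. The remaining 16 of the 18 insulin and TOR genes tested did not pass 2-fold, and the list's median was 0.09.

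Other high genes differed at both stages. Cyp12a4, a mitochondrial P450 gene linked to insecticide resistance, measured 1.65 RPKM in wild-type larvae and 42.7 in Cmi-depleted larvae at clear gut, with the largest positive difference (4.05) among the genes that have a symbol and whole recovered reads. It measured 117 RPKM in the Trr-labelled library. Pgd, an enzyme gene of the pentose phosphate pathway, had 0 reads in wild type and 375 in Cmi-depleted larvae, at least 121-fold higher when wild type is set to the floor of 3 reads, although the exact lower limit of the ratio was 97.7. With 9.69 RPKM in the Trr-labelled library, wild type alone was at or near 0 for Pgd. The other 6 pentose phosphate genes did not pass 2-fold.

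Dcr-2, whose Dicer enzyme cuts long double-stranded RNA into small interfering RNAs, showed a different order. It measured 14.3 and 29.3 RPKM in wild-type larvae, 143 and 197 in Cmi-depleted larvae, and 17.2 and 25.6 in the Trr-labelled libraries. Only the Cmi libraries were high, with a ratio at clear gut of 6.74 (6.52 to 6.96). The labels do not say whether any genotype carried an additional copy of Dcr-2, and the part of such a copy in these values was not tested. Of the other 15 small RNA genes tested, 0 passed 2-fold, and AGO2, r2d2 and Dcr-1 lay at -0.18, 0.23 and 0.03.

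Metabolic and fat body genes contributed a few high values. Pepck, the gene for phosphoenolpyruvate carboxykinase of gluconeogenesis, measured 448 and 78.96 RPKM in wild-type larvae, 1013 and 625 in Cmi-depleted larvae, and 938 and 386 in the Trr-labelled libraries. Wild type was lowest at both stages, and the ratio to it at clear gut was 7.92 (7.69 to 8.16). Lsp1gamma, a storage protein gene of the fat body, measured 10838 and 218, 13356 and 997, and 12209.6 and 2126 RPKM in the same order. The storage protein gene Lsp1beta was lower instead, at 253 and 124 RPKM in wild-type larvae and Cmi depletion at clear gut, and the 12 fat body genes tested had a median of 0.09. CG9812, of no described role here, was the most abundant of the 12 highest genes, at 308 RPKM in wild-type larvae, 1587 in Cmi-depleted larvae and 665 in the Trr-labelled library at clear gut.

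Antimicrobial peptide genes, which the Toll and Imd pathways switch on, included some high values. Of 16 tested, 4 were at least 2-fold higher and 0 lower, with a median of 0.55 at clear gut and 0.54 at blue gut. At blue gut 7 were at least 2-fold higher and 3 lower, beside 1.48% and 1.83% of all tested genes. In the Trr-labelled library at clear gut, 8 were at least 2-fold above wild type and 2 below it. The share over all tested genes was not counted for that library, so these counts carry no reading. CecA2, a cecropin gene, measured 8.72 RPKM in wild-type larvae, 38.3 in Cmi-depleted larvae and 8.47 in the Trr-labelled library at clear gut. Dpt, a diptericin gene, measured 35.0, 73.5 and 225 RPKM in the same order, and AttA, an attacin gene, 0.344, 2.75 and 2.73. The genes with the highest RPKM of the list, Drsl5 (3042 and 2868 in wild-type larvae and Cmi depletion), Drs (798 and 959) and Mtk (639 and 944), did not pass 2-fold. Of 11 peptidoglycan recognition genes, 0 passed 2-fold.

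Testis genes lay above 0 throughout the list, and few of them passed 2-fold. All 22 tested (of 26 in the table) lay above 0, and 21 above the median of all tested genes, with a median of 0.70 at clear gut and -0.18 at blue gut, and 2 passed 2-fold. Of all tested genes, 69.0% lay above 0. Their summed level was 345 RPKM in wild-type larvae, 595 in Cmi-depleted larvae and 556 in the Trr-labelled library at clear gut, and 529, 428 and 612 at blue gut. None of the tested members was at 0 in the clear gut pair. betaTub85D, the tubulin gene of the male germ line, stood at 56.0 and 96.9 RPKM in wild-type larvae and Cmi depletion, and ocn, another gene of the male germ line, at 58.8 and 101. The labels do not give the share of males in the pools, and its part in these values was not tested.

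Chromatin and patterning genes were close to wild type. Of the 16 COMPASS subunits tested, 0 passed 2-fold, and they lay between -0.33 for Lpt and 0.36 for Pa1. Utx, whose product removes methyl groups from histone H3 within the same complex, measured 36.3 RPKM in wild-type larvae and 31.4 in Cmi-depleted larvae, a ratio of 0.864 (0.822 to 0.909). The 23 Polycomb group genes, 6 Hox genes, 17 Hippo pathway genes, 32 cell cycle genes and 43 imaginal disc patterning genes also had 0 members past 2-fold. Over all tested genes 5.71% were past 2-fold, so 0 members in a short list is near that share. The medians of these 5 lists were 0.17, -0.05, 0.06, 0.25 and 0.07, beside 0.13 for all genes. The signs of the COMPASS, Hippo and disc patterning medians turn with median-ratio scaling or quantile normalization, so no direction is given for them. The proteasome, vacuolar ATPase, glycolysis and respiratory chain lists, with medians from -0.09 to 0.09, and both lists of ribosomal protein genes (-0.03 and 0.19) had 0 members past 2-fold.

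The clear gut differences were set beside those of the blue gut pair, which shares no library with them. Of the 481 genes lower at clear gut, 117 (24.3%) were also at least 2-fold lower at blue gut, where 1.83% of the genes tested at clear gut were. Of the 161 higher genes, 52 (32.3%) were also at least 2-fold higher at blue gut, where 1.48% of the tested genes were. Among the lower genes 343 (71.3%) lay below 0 at blue gut, as did 41.9% of all tested genes. Of the higher genes 111 (68.9%) lay above 0 there, as did 58.0% of all tested genes. At blue gut 233 of the lower and 76 of the higher genes lay within 0.5 of 0. The share of all tested genes in that range was not counted, so nothing is read from these counts. In the opposite direction, 6 of the 481 lower genes were at least 2-fold higher at blue gut, beside 1.48% of all tested genes. Of the 161 higher genes, 4 were at least 2-fold lower there, beside 1.83%. These shares are small over all genes too, so the low counts are no sign of agreement between the stages. Over the 10730 genes tested at both stages, the differences had a Pearson correlation of 0.27 and a Spearman correlation of -0.03. These are descriptions across genes, and the points of a stage share their libraries.

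**Figure D4:**
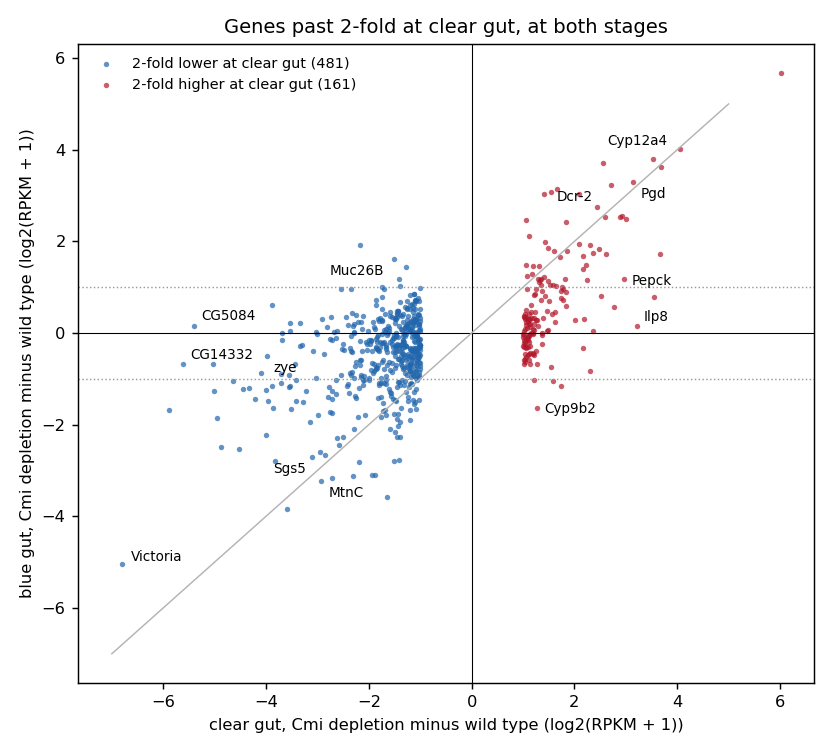
Difference in log2(RPKM + 1) between Cmi depletion and wild type at clear gut (horizontal) and blue gut (vertical) for the 642 genes past 2-fold at clear gut. The grey diagonal marks equal differences and the dotted lines 2-fold at blue gut; Cyp12a4, Pgd, Dcr-2 and MtnC lie near the diagonal, while CG5084 and Ilp8 lie near 0 at blue gut.

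Genes low at both stages included CG17105, CG6870, Nplp4 and GstE3. CG17105 measured 894 and 55.4 RPKM in wild-type larvae, 154 and 1.44 in Cmi-depleted larvae, and 125 and 5.32 in the Trr-labelled libraries. Nplp4, a neuropeptide-like precursor gene, measured 575 and 123, 119 and 21.0, and 70.8 and 32.4 RPKM in the same order. In both, wild type was the highest at each stage. Genes high at both stages included CG42305, which measured 74.3 and 20.1, 615 and 88.9, and 205 and 129 RPKM, and CG5953, which measured 36.5 and 99.0, 494 and 586, and 145 and 245. Wild type was the lowest at each stage in both. CG13822, annotated as the lysosomal thiol reductase GILT3, stood at 5.79 RPKM in wild-type larvae and 23.3 in Cmi-depleted larvae at clear gut, and CG13936, the neuropeptide gene CNMa, at 0.606 and 3.32.

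The Trr-labelled libraries, which share no library with the clear gut pair, show how the same genes differed between the stages elsewhere. Of the 481 lower genes, 198 (41.2%) were at least 2-fold lower at clear gut than at blue gut there, beside 5.23% of all tested genes. Another 91 (18.9%) were at least 2-fold higher at clear gut, beside 7.06% of all. The lower set thus held genes that were lower at clear gut than at blue gut there, such as Mlp84B and LysS, and genes that were higher, such as Ddc and Gld. Of the 161 higher genes, 17 (10.6%) were lower and 14 (8.70%) higher at clear gut by at least 2-fold in those libraries, with a median of -0.03.

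Genes lower in Cmi depletion lay next to each other in places. With positions from the dm6 assembly, 457 of the lower genes could be placed, and 55 of them stood in 16 runs of at least 3 consecutive tested genes that were all at least 2-fold lower. The 132 higher genes that could be placed formed 0 such runs. With 1.43% of tested genes higher and 4.28% lower, fewer runs of higher genes would arise in any case. The directions are therefore not compared, and the number of runs was not tested. The longest run held 6 genes on chromosome 3R, from 17406678 to 17422202: CG42798, CG42821, CG33333, CG42834, CG42835 and CG14332. Their differences ran from -5.62 to -1.14 at clear gut. CG14332 measured 297 and 267 RPKM in wild-type larvae, 185 and 4.45 in Cmi-depleted larvae, and 285.5 and 170.1 in the Trr-labelled libraries. CG42834 measured 281 and 252, 176 and 6.72, and 371 and 171 RPKM in the same order. In both genes the Cmi library was the lowest at each stage, with a much wider gap at clear gut. A run on chromosome X, from 3236130 to 3251040, held CG14265 and the glue genes ng3 and Sgs4. A run on chromosome 3L, from 4026769 to 4035703, held the 3 tested genes of a sugar receptor list added after values had been seen, Gr64a, Gr64b and Gr64d, all weak at 2.73, 3.33 and 4.58 RPKM in wild-type larvae and 0.511, 1.13 and 1.38 in Cmi-depleted larvae. A run on chromosome 3L from 11943640 to 11953317 held CG5883, CG7252, CG17826 and obst-G, of which obst-G, not part of the chitin list above, belongs to the chitin-binding obstructor family. Neighbouring genes can be members of 1 gene family with like sequences, so they are not independent counts. By chromosome arm, the share of tested genes that were lower was 3.15% on X and between 3.95% and 5.01% on 2L, 2R, 3L, 3R and 4.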

How the data were processed

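RNA of 6 pools of whole larvae was sequenced, and the 2 clear gut libraries of wild type and Cmi depletion carry this comparison. Per the labels' protocols, DNase-treated RNA was selected with oligo dT, fragmented, sequenced on an Illumina HiSeq and mapped by SOAPaligner/SOAP2. Bowtie and the build dm6 appear in the submitters' processing notes without a version or a role. For the counting tool and the gene annotation, nothing is given in the sources used here. The table deposited by the authors gives RPKM, in which reads per gene are scaled to library depth and gene length, beside the length of each gene. Samples were grouped by the labels' genotype and stage.

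Dashes were taken as 0. From the steps between low RPKM values the depth of each library was worked out, and reads were recovered with it: 85.5% to 86.2% of judged values came within 0.1 of whole reads (chance gives 20%), and nearly all did so when whole reads plus 0.5 were allowed as well (chance gives 40%). The recovered reads served for intervals, floors and marking of genes with shared reads, and no count test was run. The product of RPKM and length summed to the same total in every library, so the values are scaled to reads on the listed genes. Differences are log2(RPKM + 1), with a minimum mean of 1 RPKM, and a gene was counted past 2-fold in either direction. Without replicates there is no test, and intervals cover counting error only. Alternatives were pseudocounts of 0.1 and 5 RPKM, other scalings, other filters and the interval in place of the point value.

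Positions and current symbols come from RefSeq's Release 6 annotation (the dm6 assembly), where 13253 of 15741 identifiers (84.2%) matched, 10455 of them among those tested. Exon overlaps were looked up in the Ensembl annotation of the same assembly. No sequence is printed.

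Genes and lists were chosen with earlier results of these data known, and the lists of mucin and peritrophin, purine synthesis, sugar receptor and zona pellucida domain genes were added after values had been seen. By a rule, 115 genes were picked. From 8525 with a symbol and whole recovered reads it took the 12 highest and 12 lowest at clear gut. From the same 8525 it took the 10 highest and 10 lowest that also pass 2-fold at blue gut, and up to 4 members of each list past 2-fold. The COMPASS subunits were added whatever their recovered reads, and some of the 115 are not described in the text. Other genes in the text were picked after their values were seen. Scripts used Python 3.11.15, pandas 2.3.3, numpy 2.4.6 and scipy 1.17.1, and were tested on simulated data.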

Additional observations from a re-analysis of the deposited data

Results flagged for a closer look

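Muc26B, a mucin gene, was lower in Cmi depletion at clear gut (log2 difference -1.42; 214 RPKM in wild-type and 79.4 in Cmi-depleted larvae) and higher at blue gut (1.19; 175.5 and 401.5 RPKM). The P450 gene Cyp9b2 was higher at clear gut (1.27; 56.1 and 136 RPKM) and lower at blue gut (-1.63; 552 and 178 RPKM). The glutathione transferase gene GstD2 was higher at clear gut (1.22; 0.548 and 2.60 RPKM) and lower at blue gut (-1.03; 8.38 and 3.60 RPKM). Each of the 3 was past 2-fold in opposite directions at the 2 stages, and with 1 library a group the difference between stages was not tested.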

How the results depend on the processing

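The 481 lower genes became 603 with a pseudocount of 0.1 RPKM, 263 with a pseudocount of 5 RPKM, and between 347 and 570 under the other 6 alternatives. The 161 higher genes became 365 and 49 with those pseudocounts, 91 with a minimum mean of 5 RPKM, 107 without entries whose values are off whole reads or could not be judged, and 115 with the interval wholly past 2-fold, and 118 to 175 under the other 3. Smaller pseudocounts and lower minimum means let in weak genes by their construction. The higher share of calls was 25.1% as reported, 37.7% and 15.7% with pseudocounts of 0.1 and 5, 17.2% after median-ratio scaling and 19.4% after quantile normalization. The Lpt ratio of 0.767 became 0.696 after median-ratio scaling and 0.669 after quantile normalization, and the cause was not tested. Of 155 genes shown past 2-fold, 110 remained so with a pseudocount of 5 RPKM and 150 to 155 under the other pseudocount and both scalings, and 0 changed sign. The medians of the COMPASS, Hippo, cell death, fat body, glycolysis, heat shock, disc patterning, insulin and TOR, metallothionein, neuronal, proteasome, respiratory chain, vacuolar ATPase and cytoplasmic ribosomal lists change sign between scalings. No paired analysis was possible because each group holds 1 library, and for the same reason no library could be left out. Counting error limits genes near the floor of 3 reads.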

Other observations

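Some smaller lists held single genes that differed. Of the 15 tested genes of an odorant binding protein list that does not hold the whole family, 3 were at least 2-fold lower in Cmi depletion at clear gut and 0 higher, among them Obp56d at 538 RPKM in wild-type and 185 in Cmi-depleted larvae. Obp57d, a family member outside the list, picked after its values were seen, was lower by more at 22.2 and 1.71 RPKM. Purine synthesis genes, a list added after values had been seen, gave 2 of 9 lower and 0 higher, Prat2 (111.5 and 48.0 RPKM) and ade3 (200.4 and 93.7), with a median of -0.31. The pupal cuticle gene Pcp lies within the span of ade3, stood at 27.5 and 3.33 RPKM, and holds values with 0.5 of a read. Kaz-m1, which lies in the Enhancer of split complex and encodes a Kazal-type protease inhibitor, stood at 19.4 and 5.12 RPKM, while the other 11 genes of that list did not pass 2-fold. The caspase gene Damm (18.8 and 4.60 RPKM) was the only lower gene among 31 of cell death and autophagy, and l(2)efl, a small heat shock protein gene (258 and 96.2 RPKM), the only lower gene among 13 heat shock genes. In neither list was a gene at least 2-fold higher. Over all tested genes 4.28% were lower and 1.43% higher, so 1 lower gene in a list of such size is near that share. Neuronal (13 tested), tracheal (6), juvenile hormone (9) and lipid (15) genes had 0 members past 2-fold, beside 5.71% of all tested genes. Their medians were 0.06, -0.17, -0.03 and -0.15. Of the marker genes often used in transgenes, w (white) stood at 241 RPKM in wild-type and 123 in Cmi-depleted larvae at clear gut. It measured 116 RPKM in the Trr-labelled library, so wild type stood apart. The gene ry (rosy) measured 14.0, 6.195 and 13.1 RPKM in the same order.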
